A study of Mus musculus with 6 samples.

Results

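The 10 genes described here encode the laminins, nidogens and heparan sulfate proteoglycans of the basement membrane, together with Sparc, a matrix protein that binds collagen IV. They were taken from the count table by symbol (Lama4, Lama5, Lamb1, Lamb2, Lamc1, Nid1, Nid2, Hspg2, Agrn and Sparc), and all 10 were found among 24421 genes. All 10 also passed the filter on low counts, among 12753 genes tested. RNA came from mouse brain-derived endothelial cells, cultured in serum-containing medium and isolated by fluorescence-activated sorting after co-culture with vascular niche cells for 6 days, a period that began once deletion of Fli-1 had been induced. One group of 3 libraries is labelled Fli-1 knockout (KO) and the other, also of 3, is labelled WT, and the labels give the same 4-OHT (4-hydroxytamoxifen) treatment for both. The sources used here do not give the recombinase, the cells in which it acts, the deleted part of Fli-1 or the age of the source animals. Whether same-group libraries came from separate cultures is not stated either, so that p-values may measure only technical spread.

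A basement membrane is the sheet of matrix on which endothelial cells sit. Its laminins are trimers of an α, a β and a γ chain that assemble into a network at the cell surface. Nidogens bridge this network to the separate network of collagen IV. Perlecan, the product of Hspg2, and agrin, the product of Agrn, are large proteoglycans whose heparan sulfate chains hold growth factors, and agrin also links laminin to receptors on the cell. In blood vessels the Lama4 and Lama5 chains are the main α chains, and in brain vessels this matrix forms part of the wall shared by endothelial cells, pericytes and astrocyte endfeet.

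Total counts per library ranged from 17550185 to 21385951, and the 10 genes together took 1.29% to 1.35% of the counts in the libraries labelled KO and 1.27% to 1.31% in those labelled WT. Levels are given as CPM (counts relative to the library's total after TMM scaling). Fli1, the targeted gene, went against the labels: it had 76.8, 111 and 77.4 CPM in the libraries labelled KO, against 45.3, 59.6 and 45.8 CPM in those labelled WT. The log2 fold change was 0.81 in both tests described below (adjusted p = 1.25e-15 in the paired test and 0.878 in the group comparison). A count per gene includes exons outside a deleted part and so does not check the deletion, and every direction below is that of the labels. Endothelial identity was checked with 12 markers, all of which were tested, and their summed level was 15300 to 17200 CPM in the libraries labelled KO and 15000 to 16200 CPM in those labelled WT. The stable sum hides Vwf, an endothelial marker whose level ranged 3.79-fold between the means of same-numbered libraries. Transcripts of other cells also differed between replicate numbers. The 12 fibroblast markers summed to 143, 1070 and 477 CPM in KO replicates 1 to 3 and to 183, 1490 and 504 CPM in WT replicates 1 to 3, and each of the 12 was highest in replicate number 2. In bulk RNA, fewer cells of a type and less RNA per cell cannot be told apart.

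Same-numbered libraries varied together, so each change was estimated in 2 ways with edgeR's quasi-likelihood test. The group comparison ignores the replicate numbers, and the paired test adds them as a block. The group comparison called 0 of the 10 genes, with adjusted p = 0.996 for each of them, and 0.00784% of all genes tested. Its unadjusted p was under 0.05 for 0 of the 10, against 611 of all 12753 genes tested. DESeq2 also called 0 of the 10, against 12 higher and 7 lower over all genes tested. With DESeq2 the unadjusted p was under 0.05 for 1 of the 10, against 445 of all 12753. The paired test called 8.81% of all genes tested, of which higher calls made up 4.81% and lower calls 4.01% of the genes tested. It called 1 of the 10 genes, Lamb1, which rose, and 9 did not pass. That share lies near the one over all genes. The unadjusted p of the paired test was under 0.05 for 3 of the 10, against 2655 of all 12753 genes tested. The calls of single genes below also turn on alternatives of the paired test, with their own shares of higher and lower calls among all genes tested. These were 4.69% and 4.1% without pair 1, 2.66% and 1.61% without pair 2, 4.33% and 4.64% without pair 3, 3.69% and 5.76% with library size alone, and 2.05% and 0.87% with DESeq2, which called Lamb1 too.

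Window sequences upstream of the β chain genes and of Nid1 are shown because Fli1 is a transcription factor of the ETS family, whose binding sites contain GGAA. Lamb1 is the gene that was called, Lamb2 encodes its alternative chain, and Nid1 has the most GGAA matches among the windows found. They are RefSeq promoter windows on GRCm38.p6, from 250 bases before to 50 after the annotated start, printed 5′ to 3′ on the strand of the gene, with GGAA on either strand (TTCC where it lies on the other strand) in capitals. Lamb1 lies on the plus strand at chr12:31265043-31265342, Lamb2 on the plus strand at chr9:108479612-108479911, and Nid1 on the plus strand at chr13:13437352-13437651.
Lamb1: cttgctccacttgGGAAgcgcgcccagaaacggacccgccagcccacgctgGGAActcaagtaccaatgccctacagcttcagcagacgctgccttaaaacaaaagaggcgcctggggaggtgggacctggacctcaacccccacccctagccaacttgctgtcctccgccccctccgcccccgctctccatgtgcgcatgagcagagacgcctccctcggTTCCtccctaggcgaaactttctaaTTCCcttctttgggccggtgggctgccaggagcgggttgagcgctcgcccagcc
Lamb2: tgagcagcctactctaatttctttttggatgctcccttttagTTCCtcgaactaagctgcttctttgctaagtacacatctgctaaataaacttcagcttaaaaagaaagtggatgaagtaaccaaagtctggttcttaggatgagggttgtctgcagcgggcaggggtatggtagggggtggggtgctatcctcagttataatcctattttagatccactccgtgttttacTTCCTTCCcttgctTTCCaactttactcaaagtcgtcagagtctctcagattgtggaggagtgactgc
Nid1: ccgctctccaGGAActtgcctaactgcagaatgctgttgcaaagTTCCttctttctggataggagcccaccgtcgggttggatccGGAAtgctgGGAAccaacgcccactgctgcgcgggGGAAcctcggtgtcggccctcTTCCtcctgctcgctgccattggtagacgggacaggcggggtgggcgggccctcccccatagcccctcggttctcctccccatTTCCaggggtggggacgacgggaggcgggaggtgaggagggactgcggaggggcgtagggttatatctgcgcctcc

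Such a window was found for 7 of the 10 genes. GGAA, counted on both strands, was present in a window of all 7, with 4 matches in each of the Lamb1 and Lamb2 windows and 7 in that of Nid1. It was also present in 96.0% of all 32851 windows, and 46.3% of all windows held at least 4 matches. The longer string CCGGAA, which contains GGAA, was present in 1 of the 7 genes, Nid1, against 14.9% of all windows, and CCGGAAGT was present in 0 of the 7, against 3.89%. Lamb1 and Lamb2 held equal numbers of GGAA matches. GGGCGG, a GC box, occurred 2 times in the Lamb1 window and 0 times in the Lamb2 window. It was present in 5 of the 7 genes, against a share of 35.7% of all windows with at least 1 match. Genes that were not called held more matches than Lamb1: 12 and 2 in the windows of Agrn, 5 in that of Hspg2 and 4 in that of Lama5. These matches describe letters in a short window and no binding was measured.

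Among the α chains, Lama4 and Lama5 did not pass either test. Lama4 (GRCm38 chromosome 10, 38965515 to 39110188, plus strand) had 678, 572 and 660.3 CPM in the libraries labelled KO, against 642, 533 and 644 CPM in those labelled WT. The groups overlapped and replicate 2 was lowest in both. In the paired test its log2 fold change came to 0.07 ± 0.040 (SE, adjusted p = 0.309). Lama5 (chromosome 2, 180176373 to 180225859, minus strand) had 397, 307 and 387 CPM in the libraries labelled KO, against 393, 299.7 and 364 CPM in those labelled WT. Again replicate 2 was lowest in both groups, and the paired log2 fold change was 0.046 ± 0.041 (SE, adjusted p = 0.582). Both genes were higher in the library labelled KO in 3 of 3 pairs. A change of the same sign in all 3 pairs was seen for 40.7% of the genes tested, 20.5% as higher and 20.2% as lower.

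Of the β chains, Lamb1 passed the paired test and Lamb2 passed neither test. Lamb1 (chromosome 12, 31265234 to 31329644, plus strand), which encodes the β chain of most endothelial laminins, had 1098, 1057 and 1084 CPM in the libraries labelled KO, against 977, 955 and 1010.3 CPM in those labelled WT. The groups did not overlap, which held for 1 of the 10 genes and for 10.2% of all genes tested, 5.25% as higher and 4.96% as lower. Means were 1079.7 ± 21 CPM and 981 ± 28 CPM (KO and WT, SD, n = 3 each), and the log2 differences within pairs 1, 2 and 3 were 0.17, 0.15 and 0.10. In the paired test Lamb1 rose by 0.14 ± 0.040 (SE) on the log2 scale (adjusted p = 0.0192), which is 1.1-fold with a 95% interval of 1.04 to 1.16. In the group comparison it was 0.14 ± 0.060 (SE, adjusted p = 0.996). The call was made with all 3 pairs and without pair 3 (0.16, adjusted p = 0.0202); it was lost without pair 1 (0.12, adjusted p = 0.0514), without pair 2 (0.13, adjusted p = 0.314) and with scaling by library size alone (0.11, adjusted p = 0.0671).

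Lamb2 (chromosome 9, 108479736 to 108490530, plus strand), which encodes the β chain found at synapses, kidney filters and arterial walls, had 175.5, 162 and 175 CPM in the libraries labelled KO, against 175, 177 and 189 CPM in those labelled WT. It lay lower in pairs 2 and 3, by log2 differences of -0.13 and -0.11, and level in pair 1, at 0.007. The paired log2 fold change was -0.075 ± 0.042 (SE, adjusted p = 0.323), with a 95% interval of 0.895 to 1.01 for the fold.

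**Figure D1:**
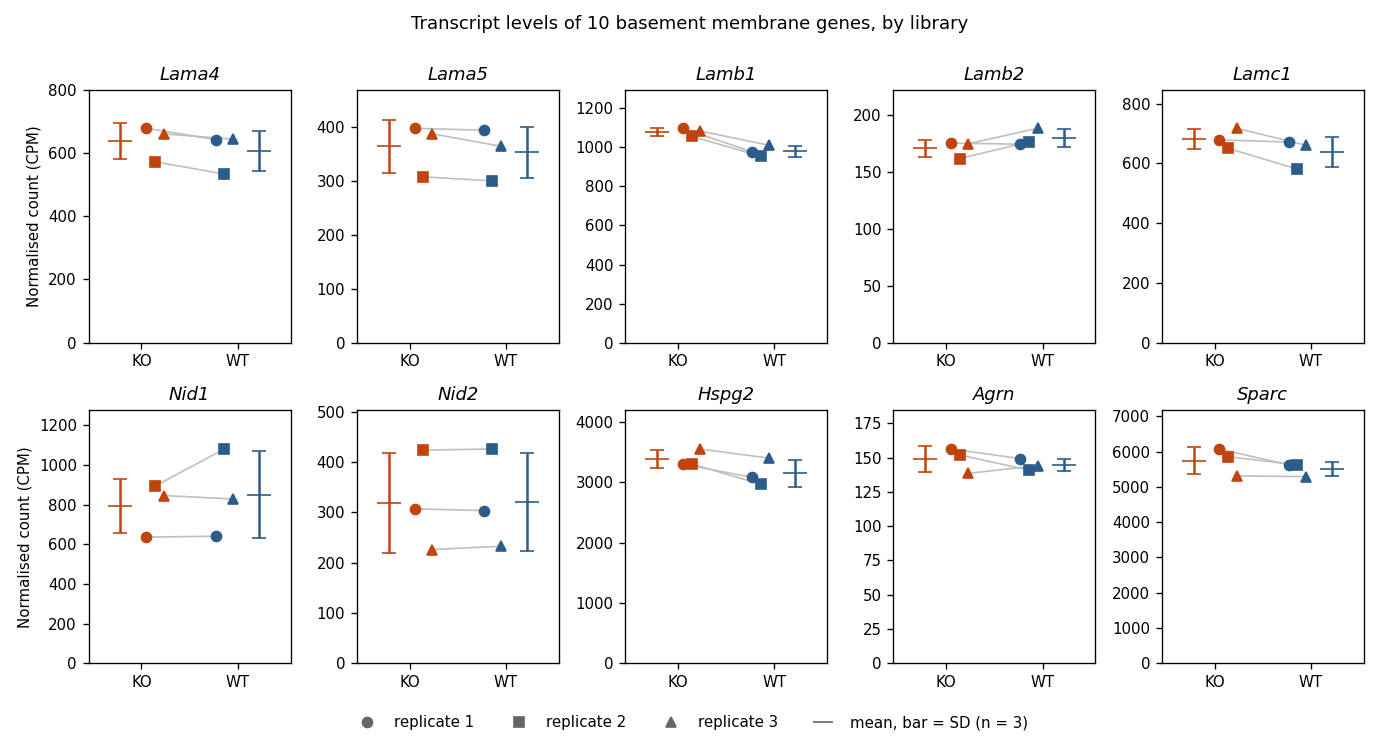
Normalised counts (CPM) of the 10 genes in each library, KO left and WT right. Symbols mark the replicate number, grey lines join same-numbered libraries and bars show the mean ± SD (n = 3 each); Lamb1 is the gene whose groups do not overlap, while Nid1 and Nid2 differ mostly by replicate number.

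The γ chain Lamc1 (chromosome 1, 153218922 to 153332786, minus strand), a part of nearly all laminins of the vessel wall, had 679, 650.4 and 718 CPM in the libraries labelled KO, against 671, 581 and 661 CPM in those labelled WT. It was higher in the library labelled KO in 3 of 3 pairs, although the groups overlapped. Its paired log2 fold change was 0.10 ± 0.041 (SE, adjusted p = 0.136). Without pair 1 it passed (0.14, adjusted p = 0.016), and without pair 2 it was 0.065 (adjusted p = 0.752).

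A laminin trimer holds 1 chain of each kind, so ratios of alternative chains were compared, along with the ratio of the nidogens, each from CPM per kb of annotated exon in the same library. The Lamb1/Lamb2 ratio was 3.84, 4.00 and 3.80 in the libraries labelled KO, against 3.43, 3.31 and 3.29 in those labelled WT. The groups did not overlap, the means were 3.88 ± 0.11 and 3.34 ± 0.077 (KO and WT, SD, n = 3 each), and the log2 differences within pairs were 0.16, 0.27 and 0.21. An exact two-sided permutation test of the log2 difference of 0.22 gave p = 0.1, the smallest that 3 against 3 libraries allow, and 0.3 when adjusted over the 3 ratios. This ratio does not depend on how libraries are scaled, but its level depends on the length used. With the longest protein-coding transcript it was 6.09, 6.35 and 6.03 in the libraries labelled KO, against 5.44, 5.26 and 5.21 in those labelled WT, with the same log2 difference. The Lama4/Lama5 ratio was 1.61, 1.76 and 1.61 in the libraries labelled KO, against 1.54, 1.68 and 1.67 in those labelled WT, and the groups overlapped (exact permutation p = 0.6, 0.8 adjusted). With the longest transcript it was 3.21 to 3.51 in the libraries labelled KO and 3.07 to 3.35 in those labelled WT.

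**Figure D2:**
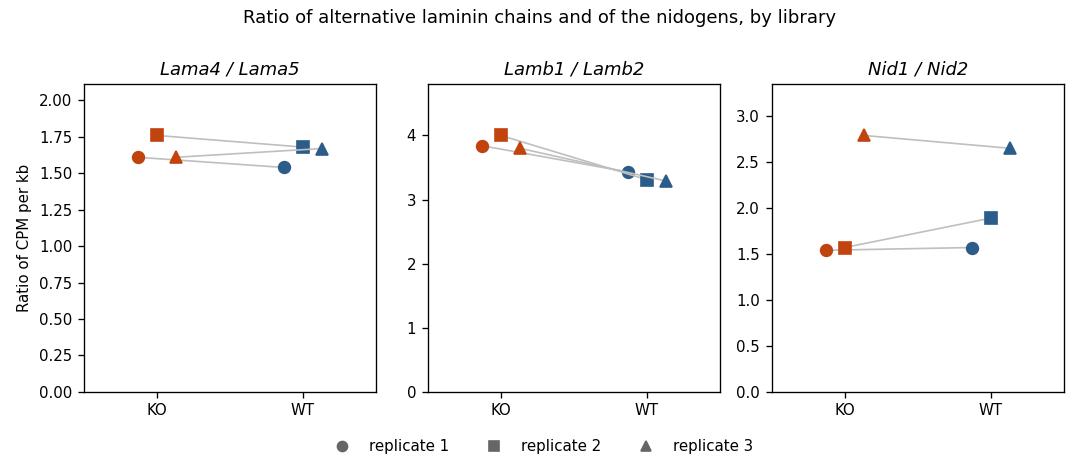
Ratios of CPM per kb for Lama4 to Lama5, Lamb1 to Lamb2 and Nid1 to Nid2 in each library, KO left and WT right, with symbols for replicate numbers and lines joining same-numbered libraries. The Lamb1/Lamb2 ratio lies between 3.80 and 4.00 in the libraries labelled KO and between 3.29 and 3.43 in those labelled WT; the other ratios overlap.

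Per length, Lamb1 made up 79.3%, 80.0% and 79.2% of the β chain transcripts in the libraries labelled KO and 77.4%, 76.8% and 76.7% in those labelled WT, with Lamb2 as nearly all of the rest. Lama4 made up 60.9% to 61.9% of the α chain transcripts in the libraries labelled KO and 60.1% to 61.7% in those labelled WT, while Lama5 made up 35.2% to 38.0% in the libraries labelled KO and 36.0% to 39.0% in those labelled WT. Other α chains were scarce. Lama2, the α chain of muscle and of mural and glial basement membranes, was at 0.13% to 1.14% of the α chains in the libraries labelled KO and 0.248% to 1.98% in those labelled WT, highest in replicate 2 of both groups.

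Summed per length, the α chains came to 76.6 to 91.9 CPM per kb in the libraries labelled KO and 73.0 to 88.5 in those labelled WT. The β chains came to 133 to 140 CPM per kb in the libraries labelled KO and 125 to 133 in those labelled WT. These levels depend on the length used. With the longest protein-coding transcript in place of all annotated exons, Lama4 made up 75.5% to 76.0% of the α chains in the libraries labelled KO and 74.7% to 76.1% in those labelled WT.

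The nidogens differed between replicate numbers far more than between the groups. Nid1 (chromosome 13, 13437551 to 13512269, plus strand) had 636, 893 and 846 CPM in the libraries labelled KO, against 641, 1080 and 828 CPM in those labelled WT. The groups overlapped, and the log2 difference was -0.27 in pair 2, against -0.011 in pair 1 and 0.030 in pair 3. The paired log2 fold change was -0.086 ± 0.047 (SE, adjusted p = 0.318); it passed as lower without pair 1 (-0.12, adjusted p = 0.0466) and without pair 3 (-0.14, adjusted p = 0.0442), and without pair 2 it was 0.007 (adjusted p = 0.976).

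Nid2 (chromosome 14, 19751265 to 19811787, plus strand), the paralog that can stand in for Nid1 in many basement membranes, had 307, 424 and 226 CPM in the libraries labelled KO, against 304, 426 and 233 CPM in those labelled WT. Same-numbered libraries were nearly equal, while the mean of pair 2 was 1.85 times that of pair 3. The paired log2 fold change was -0.011 ± 0.041 (SE, adjusted p = 0.924). The Nid1/Nid2 ratio was 1.54, 1.57 and 2.79 in the libraries labelled KO, against 1.57, 1.89 and 2.65 in those labelled WT (exact permutation p = 0.8, 0.8 adjusted). Of the exon length of Nid2, 8.45% is shared with Rtraf on the opposite strand, so its counts are uncertain to that extent, and 2.06% of that of Nid1 is shared with an antisense gene.

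Both nidogens were highest in pair 2, the pair with the highest level of all 12 fibroblast markers and of 11 of 13 mural cell markers. It also had the highest level of 2 of 12 endothelial markers, Tek and Vwf. Vwf had 340, 850 and 209 CPM in KO replicates 1 to 3 and 300, 815 and 231 CPM in WT replicates 1 to 3. Nid2 and Vwf were lowest in pair 3, while Nid1 and the summed fibroblast markers were lowest in pair 1. The mural cell markers summed to 1450, 1890 and 1900 CPM in KO replicates 1 to 3 and to 1430, 2260 and 1600 CPM in WT replicates 1 to 3. Most of this sum came from Tagln and Acta2, which averaged 1136 and 506 CPM over all 6 libraries. Tagln was highest in pair 3. In the paired test 3 of 11 tested mural cell markers fell (Cspg4, Notch3 and Pdgfrb) and 0 rose. Tagln and Acta2 did not pass, with log2 fold changes of 0.089 and -0.075 (adjusted p = 0.239 and 0.895). Of 10 tested fibroblast markers, 4 fell (Col1a1, Col3a1, Mfap5 and Prrx1) and 1 rose (Dcn). Dcn was higher in pair 2 alone, with log2 differences of -0.005, 0.64 and -0.40 in pairs 1 to 3. Col1a1, Mfap5 and Prrx1 were lower in all 3 pairs, while Col3a1 was at 0.024 in pair 3. These marker calls depended on the fit. DESeq2 with the block called Notch3 among the mural cell markers and 0 fibroblast markers, while without pair 2 Notch3, Cspg4, Col1a1 and Col1a2 were called, all as lower, and Dcn was also lost with library size alone. In the opposite order, Lama4 and Lama5 were lowest in pair 2, with ranges between pair means of 1.19-fold and 1.30-fold. Lamb1, Lamb2, Lamc1, Hspg2, Agrn and Sparc varied least with the replicate number, between 1.04-fold for Lamb1 and 1.12-fold for Lamc1. The part of these markers in the differences between libraries was not tested.

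**Figure D3:**
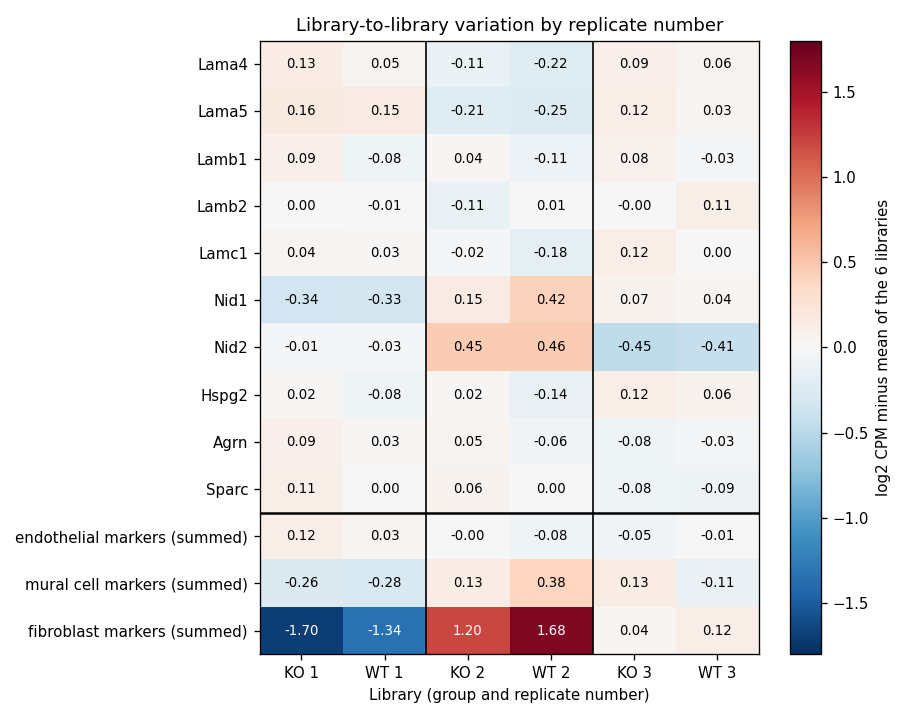
Deviation of each gene's log2 CPM from its mean over the 6 libraries, with the summed level of 3 marker lists below the line. Libraries are ordered by replicate number, KO left of WT in each pair; Nid2 reads 0.45 and 0.46 in pair 2 and -0.45 and -0.41 in pair 3, while fibroblast markers read 1.2 and 1.68 in pair 2 and -1.70 and -1.34 in pair 1.

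Among the proteoglycans, Hspg2 (chromosome 4, 137468769 to 137570630, plus strand) had 3306, 3308 and 3555 CPM in the libraries labelled KO, against 3085, 2971 and 3403 CPM in those labelled WT. Replicate 3 was highest in both groups, and the library labelled KO was higher in 3 of 3 pairs, by 0.10, 0.16 and 0.063 on the log2 scale. The paired log2 fold change was 0.11 ± 0.041 (SE, adjusted p = 0.104), and the 95% interval of the fold was 1.02 to 1.14. Agrn (chromosome 4, 156165290 to 156197488, minus strand), the lowest of the 10 genes per length, had 156, 152 and 139 CPM in the libraries labelled KO, against 149, 141 and 144 CPM in those labelled WT. Its paired log2 fold change was 0.040 ± 0.044 (SE, adjusted p = 0.668).

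Sparc (chromosome 11, 55394500 to 55423183, minus strand) was the most abundant of the 10 genes, with 6074, 5855 and 5312 CPM in the libraries labelled KO, against 5626, 5627 and 5292 CPM in those labelled WT. Replicate 3 was lowest in both groups. The paired log2 fold change was 0.058 ± 0.041 (SE, adjusted p = 0.465).

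Per kb of annotated exon, the mean level over all 6 libraries was 1490 CPM for Sparc, 229 for Hspg2, 118 for Nid1, 104 for Lamb1, 79.8 for Lamc1, 61.8 for Nid2, 51.5 for Lama4, 31.4 for Lama5, 28.8 for Lamb2 and 15.8 for Agrn. Neighbours in this order whose ranges overlapped were Nid1 and Lamb1, Lamc1 and Nid2, Nid2 and Lama4, and Lama5 and Lamb2. With the longest protein-coding transcript as the length, Lamb1 (178 CPM per kb) came above Nid1 (135) and Lama4 (103) above Lamc1 (86.6). Sparc and Hspg2 stayed first and Agrn last with either length.

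Over the 10 genes the median log2 fold change in the paired test was 0.052, against -0.0033 over all genes tested, and the median absolute value was 0.074 against 0.08. Higher values in the libraries labelled KO were seen for 7 of the 10, against 48.9% of all genes tested. In all 3 pairs, 6 of the 10 were higher, against 20.5% of all genes tested. Some of these pair differences were close to level on the log2 scale: Lama5 at 0.014 and Lamc1 at 0.016 in pair 1, and Sparc at 0.005 in pair 3. With library size alone in the paired test, the median was 0.025 for the 10 genes and -0.0297 over all genes tested. For the 9 genes that did not pass, the 95% intervals of the paired test reached from 0.881-fold, for Nid1, to 1.14-fold, for Hspg2. The intervals of the group comparison were wider, from 0.579-fold to 1.71-fold for Nid2. A gene that did not pass is not thereby shown to be equal in both groups.

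**Figure D4:**
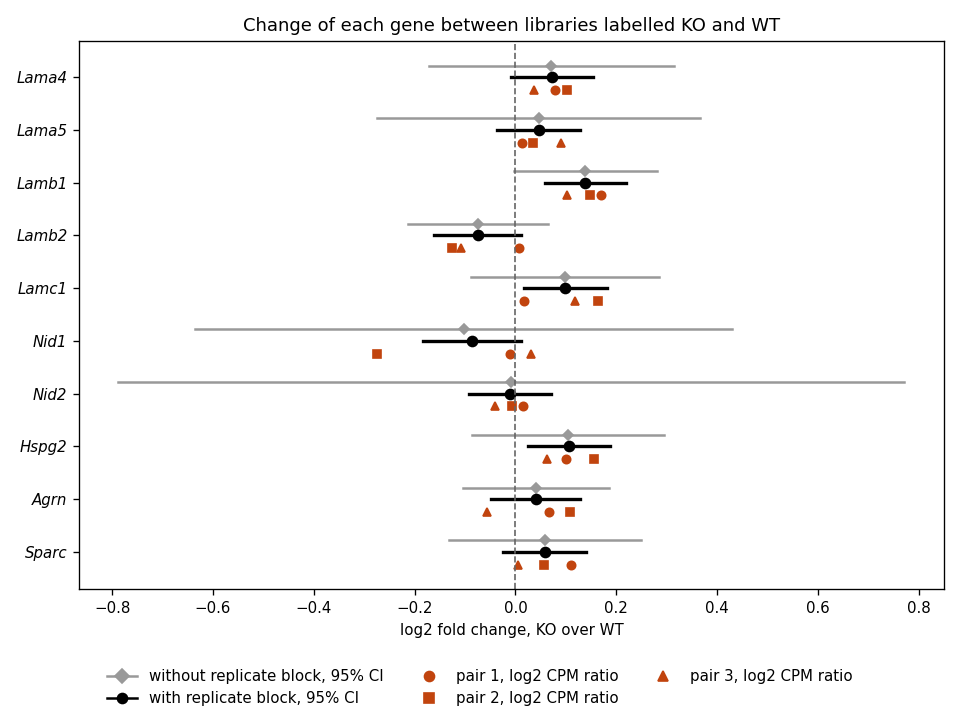
Log2 fold change, KO over WT, of each gene: estimate with 95% confidence interval without (grey) and with (black) the replicate block, and the log2 CPM ratio of each same-numbered pair (orange symbols). The paired interval of Lamb1 lies above 0 with all 3 pairs at 0.10 or more, and Nid1 in pair 2 lies apart at -0.27.

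Of a list of 23 other basement membrane genes, 17 were tested, and 3 rose, 1 fell and 13 did not pass in the paired test, with a median log2 fold change of 0.068. Col18a1, which encodes the heparan sulfate-bearing collagen XVIII, averaged 2529 ± 179 CPM in the libraries labelled KO and 2059 ± 178 CPM in those labelled WT (SD, n = 3 each), without overlap, and rose by 0.30 ± 0.043 (SE, adjusted p = 2.59e-06). Col15a1, a related collagen, rose by 0.24 (adjusted p = 0.000117). Its groups overlapped, at 1119, 1907.5 and 657 CPM in the libraries labelled KO, against 898, 1558 and 615 CPM in those labelled WT. It was highest in pair 2, and the group comparison gave adjusted p = 0.996. Ntn4, a netrin that binds laminin γ chains and disturbs their networks, had 131, 156.5 and 156 CPM in the libraries labelled KO, against 111, 143 and 118 CPM in those labelled WT, and rose by 0.26 ± 0.047 (SE, adjusted p = 0.000122).

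Lama2 was the gene of this list that fell, by 0.59 (adjusted p = 0.000449) at 1.95, 14.3 and 7.01 CPM in the libraries labelled KO, against 3.58, 23.6 and 8.26 CPM in those labelled WT. Lama2 was highest in pair 2, as the fibroblast markers were. Without pair 2, Col18a1, Col15a1 and Ntn4 passed (0.25, 0.21 and 0.32) and Lama2 (-0.46, adjusted p = 0.169) did not. DESeq2 with the block also called those 3 and not Lama2. Col4a1 and Col4a2, the collagen IV chains and the most abundant genes of this list, averaged 8568 ± 238 and 6295 ± 307 CPM in the libraries labelled KO and 8200.2 ± 272 and 6215 ± 334 CPM in those labelled WT (SD, n = 3 each), and did not pass (adjusted p = 0.424 and 0.861 with the block in edgeR).

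Among 18 receptors of laminin, agrin and perlecan, 17 were tested, of which 1 rose and 4 fell. Itga2, whose product pairs with that of Itgb1 as a receptor for collagen and laminin, had 27.3, 32.7 and 23.6 CPM in the libraries labelled KO, against 18.6, 18.4 and 14.4 CPM in those labelled WT. The groups did not overlap, and Itga2 rose by 0.70 ± 0.077 (SE, adjusted p = 5.5e-09). The list holds 6 syndecans and glypicans, which are cell surface heparan sulfate proteoglycans, grouped here after the calls were seen. Of these 6, 4 fell, and of all genes tested 4.01% fell. Because the 6 were grouped after the calls, setting their share beside that one tests nothing. Sdc3 and Sdc2, also named after their values were seen, did not pass (log2 fold changes of 0.092 and 0.002). Sdc4, a syndecan, had 137, 146 and 130.0 CPM in the libraries labelled KO, against 168, 192 and 159 CPM in those labelled WT, again without overlap, and fell by 0.33 ± 0.043 (SE, adjusted p = 3.14e-07). The glypicans Gpc4 and Gpc1 fell by 0.21 and 0.41 (adjusted p = 0.00694 and 0.0088). Sdc1, named as the remaining call of this list after its value was seen, fell by 0.22 (adjusted p = 0.0336). Gpc4, Gpc1 and Sdc1 had overlapping groups and were highest in pair 2, as the fibroblast markers were. Their ranges between pair means were 1.53-fold, 8.86-fold and 5.83-fold. Without pair 2, and likewise with DESeq2 in the paired design, 1 receptor rose, Itga2, and 1 fell, Sdc4. Itgb1 and Mcam, a laminin receptor of endothelium, the most abundant of the list, had paired log2 fold changes of 0.040 and 0.052 and did not pass.

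Among 21 genes that build or edit heparan sulfate, 20 were tested, and 2 rose and 1 fell. The sulfatases that strip sulfate from finished heparan sulfate chains outside the cell moved in opposite directions. Sulf1 had 75.9, 185 and 126 CPM in the libraries labelled KO, against 50.8, 126 and 80.0 CPM in those labelled WT, and rose by 0.60 ± 0.046 (SE, adjusted p = 6.46e-13), a change of 1.51-fold that was present in each pair at 0.58, 0.56 and 0.65. Sulf2 had 66.2, 71.5 and 84.5 CPM in the libraries labelled KO, against 73.2, 88.2 and 96.6 CPM in those labelled WT, and fell by 0.21 ± 0.049 (SE, adjusted p = 0.00248). Ext1, a polymerase of the chains, rose by 0.17 (adjusted p = 0.00595), and Ndst1, which starts their sulfation, had a paired log2 fold change of -0.002 (adjusted p = 0.986). Without pair 2, Sulf1 passed (0.62) and Sulf2 (-0.17, adjusted p = 0.189) and Ext1 (0.19, adjusted p = 0.0755) did not, and DESeq2 with the block called Sulf1 alone of the 3. Both sulfatases and Ext1 had overlapping groups, and in the group comparison 0 genes of these 3 lists passed. In that comparison 3 genes of these lists, with 17, 17 and 20 tested, had an unadjusted p under 0.05. Over all genes tested it was 611 of 12753. DESeq2 without the block called Itga2 (adjusted p = 0.0498).

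**Figure D5:**
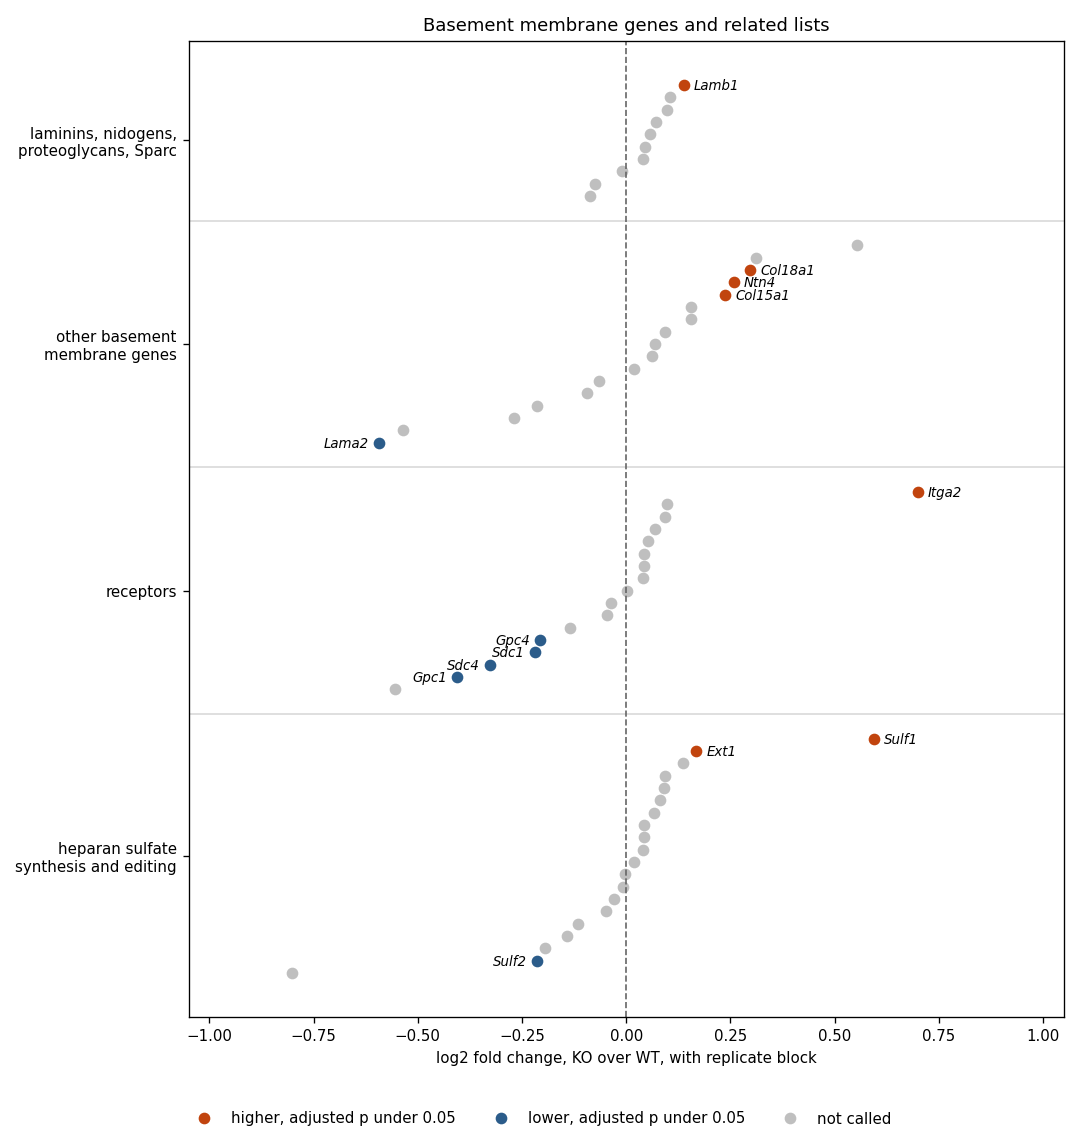
Log2 fold changes, KO over WT, in the paired test for the 10 genes and the tested genes of 3 related lists, each point a gene. Orange and blue points passed an adjusted p of 0.05 as higher or lower and are named; the 10 genes lie between -0.086 and 0.14, while Itga2 and Sulf1 lie at 0.70 and 0.60.

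Of the 4 tested markers of blood cells, 3 rose in the paired test: Coro1a, Laptm5 and Lcp1. The other, Cd68, had a paired log2 fold change of -0.099 (adjusted p = 0.836). Without pair 2 Laptm5 was the 1 called, and Coro1a was also lost without pair 1, without pair 3, with library size alone and with DESeq2. Lcp1, the most abundant, averaged 366 ± 10.5 CPM in the libraries labelled KO and 319 ± 16.6 CPM in those labelled WT (SD, n = 3 each). Tyrobp and Rac2, also markers of blood cells, had 0 counts in all 6 libraries. Ptprc, Csf1r, Fcer1g and Itgam averaged 0.128, 0.351, 0.148 and 0.0238 CPM over all 6 libraries and were not tested. The 10 blood cell markers summed to 474 to 608 CPM in the libraries labelled KO and 393 to 536 CPM in those labelled WT. Most of this sum came from Lcp1 and Laptm5, which averaged 342 and 162 CPM over all 6 libraries. The 8 astrocyte and neural markers summed to 2.25 to 3.28 CPM in the libraries labelled KO and 2.61 to 3.11 CPM in those labelled WT, with Aqp4 at 0. Of 12 endothelial markers, 2 rose, Emcn and Tek, and 1 fell, Robo4, and the most abundant, Cdh5 and Pecam1, did not pass. Without pair 2, 0 endothelial markers were called higher and 1 lower, Cldn5; Robo4 was also lost without pair 3, and Tek with library size alone and with DESeq2. The part of these markers in the changes of matrix genes was not tested.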

How the data were processed

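Polyadenylated RNA of 6 sorted samples was sequenced from libraries made with a non-stranded or a stranded TruSeq kit, per the labels; the kit of each sample is not stated. The authors deposited raw read counts per gene symbol, 1 column per library, not normalised. Per the submitters' processing notes, mm10 and GRCm38 are the builds, and the tools are STAR 2.6.1d, featureCounts of Subread 1.6.4, Trim Galore 0.6.4 and FastQC 0.11.8. The sources used here do not give the annotation, the strand setting or how multi-mapping reads were counted. Positions and exon lengths come from GENCODE M21 on GRCm38 (23336 symbols, 95.6%, matched 1 gene).

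Counts were filtered with filterByExpr, scaled by TMM and compared with edgeR 4.0.16 (robust quasi-likelihood F test, R 4.3.3), with Benjamini-Hochberg adjustment over 12753 genes at a false discovery rate of 0.05. DESeq2 1.42.0, other scalings, no filter, left-out libraries or pairs and the replicate block were alternatives. The SE is the log2 fold change over the square root of F. The fits were also run on simulated counts with known changes, whose means and spread came from fits with the replicate numbers. Such counts cannot check whether the numbers pair the libraries, and no result of that run is used here. Libraries sharing a number deviated together from their group means (r = 0.776, 0.857 and 0.652), so the numbers were taken to pair them; the labels do not state it. With the block the biological coefficient of variation was 0.0383, against 0.189 without it, on 2 residual degrees of freedom against 4, so paired p-values lean on a spread pooled across genes. No pair of libraries agreed within sampling noise. Besides the 10 genes and Fli1, named genes were, per list, the 2 most abundant and up to 3 per direction called in the paired test. Sdc1, Sdc2, Sdc3, Col3a1, Cldn5, Vwf, Tyrobp, Rac2 and Aqp4 fall outside this rule. So do Cd68, Ptprc, Csf1r, Fcer1g and Itgam, and all of these were named after their values were seen. A listed gene is not reported here. Members and lists were chosen with earlier results of these data known.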

Additional observations from a re-analysis of the deposited data

How the results depend on the processing

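Without the block, 0 of the 10 genes passed under any alternative run: RLE scaling, library size alone, no filter, DESeq2 and each left-out library. The genes called over all tested were 0 higher and 1 lower, 12 and 7 with DESeq2, and 0 to 1 lower when 1 library was left out. With the replicate block 613 were higher and 511 lower: 471 and 734 with library size alone, 625 and 521 with RLE scaling, 631 and 576 with no filter, 262 and 111 with DESeq2, and 603 and 527 without pair 1, 339 and 205 without pair 2, and 560 and 600 without pair 3. With all 3 pairs, the block changed no call of the 10 genes other than Lamb1. Without pair 1, the paired test called Lamc1 higher and Nid1 lower, and without pair 3 it called Lamb1 higher and Nid1 lower.

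Of the 10, the block with RLE scaling, no filter or DESeq2 gave 1 higher, and leaving out a pair gave 0 to 1 higher and 0 to 1 lower; Lamb1 was higher in all 18 alternatives (0.11 to 0.16) and passed in 5. Leaving out 1 library turned the direction of Lama4 (-0.018 to 0.14), Lama5 (-0.061 to 0.16), Nid1 (-0.27 to 0.10) and Nid2 (-0.27 to 0.25), and leaving out a pair that of Nid1 (-0.14 to 0.007) and Nid2 (-0.025 to 0.004). The Lama4/Lama5 and Nid1/Nid2 log2 ratios also turned (-0.016 to 0.048 and -0.35 to 0.13), and Lamb1/Lamb2 stayed at 0.19 to 0.23. With the block, also with library size alone, 3 other basement membrane genes were higher and 1 lower, 1 receptor and 4, and 2 heparan sulfate genes and 1. DESeq2 with the block gave 3 and 0, 1 and 1, and 1 and 0. Leaving out a pair gave 3 to 4 and 0 to 3, 1 and 1 to 4, and 1 to 2 and 0 to 2. The cause was not tested. A fit without a pair keeps 1 residual degree of freedom. Exon lengths from the longest transcript were added after seeing the data.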
